A study of Homo sapiens with 6 samples.

Results

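YAP and TEAD genes were examined in clones of H9, an established human embryonic stem cell line, that carried different forms of the histone H2A.X. The set was a list of 10 genes: CCN2, CCN1, ANKRD1, AXL and AMOTL2 as targets, YAP1, TEAD1 and TEAD4 as the transcription machinery, and LATS2 and AJUBA as regulators. Of these, 8 had at least 1 named row among the 14884 named genes. CCN1 and LATS2 had none and were not analysed here. Where a gene had 2 rows, the one with the higher mean over the 6 arrays was used, so that rows were chosen by their mean level and not by a difference between groups. The genes themselves were listed with results of these comparisons known, so counts over them are descriptions, and nothing is read from them.

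The gamma_ON group carried H2A.X with the substitution S139E, a glutamate in place of the serine that is phosphorylated at DNA double-strand breaks. The gamma_OFF group carried H2A.X with T136A and S139A, alanines that take no phosphate. The CTRL group carried the eGFP vector without a histone. In all 3 groups a lentiviral vector with the EF1α promoter and an IRES-eGFP cassette had been introduced, and cells positive for GFP and the surface antigen TRA 1-60 had been sorted singly onto mouse embryonic fibroblasts. Colonies were expanded on such feeders in conditioned medium with 8 ng/ml bFGF. Each group had 2 arrays of total RNA, and whether these came from separate clones is not given in the labels, so the spread behind the p-values may be technical. No group received unsubstituted H2A.X, so in the comparisons with CTRL an effect of a substitution and one of extra histone cannot be told apart. Gamma_ON and gamma_OFF both carried an added histone, and a difference between them cannot be assigned to either form.

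YAP, encoded by YAP1, is a transcriptional coactivator with no DNA-binding domain of its own. It acts through the TEAD proteins, which bind DNA. The Hippo kinases LATS1 and LATS2 phosphorylate YAP and keep it out of the nucleus, so the transcript levels of target genes such as CCN2 and ANKRD1 are widely read as a measure of nuclear YAP. In human pluripotent cells, cell density, cell shape and substrate stiffness are known to alter where YAP resides. Phosphorylation and localisation of YAP leave no direct trace in transcript arrays.

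For each gene that fell, and for AMOTL2, which was not called, a promoter window that holds a TEAD site core is shown. This core, CATTCC, reads as GGAATG on the other strand and is the core of sites that TEAD proteins bind. Binding of TEAD proteins at these windows was not tested. The windows run from 250 bases before to 50 bases after an annotated start, come from RefSeq (GRCh38.p14), and are written in the direction of transcription. Capitals mark matches to the TEAD core and to TGANTCA, which was used here as a loose AP-1 motif with any base at N. TGANTCA reads alike on both strands.
CCN2, chr6:131951323-131951622 (- strand): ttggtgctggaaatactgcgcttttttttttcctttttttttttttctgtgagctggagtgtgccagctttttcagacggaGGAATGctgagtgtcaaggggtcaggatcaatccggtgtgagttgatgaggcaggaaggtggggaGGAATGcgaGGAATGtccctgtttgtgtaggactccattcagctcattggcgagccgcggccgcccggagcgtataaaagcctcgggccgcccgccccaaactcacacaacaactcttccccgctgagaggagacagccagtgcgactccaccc
ANKRD1, chr10:90921038-90921337 (- strand): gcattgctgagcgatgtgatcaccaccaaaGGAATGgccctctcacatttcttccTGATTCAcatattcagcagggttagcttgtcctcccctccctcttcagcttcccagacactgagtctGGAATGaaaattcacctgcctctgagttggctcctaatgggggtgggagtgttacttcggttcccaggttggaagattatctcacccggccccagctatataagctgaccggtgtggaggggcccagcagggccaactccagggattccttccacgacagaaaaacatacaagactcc
AXL, chr19:41226505-41226804 (+ strand): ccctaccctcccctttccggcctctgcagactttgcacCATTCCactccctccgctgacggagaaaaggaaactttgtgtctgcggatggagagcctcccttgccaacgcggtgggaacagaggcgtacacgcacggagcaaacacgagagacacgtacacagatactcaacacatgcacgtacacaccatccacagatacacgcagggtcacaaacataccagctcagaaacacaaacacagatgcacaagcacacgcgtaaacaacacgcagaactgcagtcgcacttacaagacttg
AJUBA, chr14:22976793-22977092 (- strand): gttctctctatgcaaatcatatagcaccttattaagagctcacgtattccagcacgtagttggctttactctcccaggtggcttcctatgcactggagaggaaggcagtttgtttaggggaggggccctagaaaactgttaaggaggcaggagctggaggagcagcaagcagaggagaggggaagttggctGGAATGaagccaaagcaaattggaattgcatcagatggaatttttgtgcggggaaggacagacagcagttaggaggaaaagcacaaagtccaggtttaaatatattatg
AMOTL2, chr3:134374398-134374697 (- strand): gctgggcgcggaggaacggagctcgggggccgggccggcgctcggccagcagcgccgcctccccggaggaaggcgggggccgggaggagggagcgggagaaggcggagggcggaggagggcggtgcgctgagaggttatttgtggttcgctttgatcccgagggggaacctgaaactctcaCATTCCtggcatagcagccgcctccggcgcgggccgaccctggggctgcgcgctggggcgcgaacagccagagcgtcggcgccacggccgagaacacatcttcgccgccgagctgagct
CCN2 had 3 TEAD core matches, at 169 to 164, 104 to 99 and 95 to 90 bases before the start. ANKRD1 had 2 of them, at 220 to 215 and 128 to 123 bases before the start, and an AP-1 match at 195 to 189 bases. AXL, AJUBA and AMOTL2 have 2 windows each, and in each gene only the window shown here held a TEAD core match. In all of them the window shown lies at a start further downstream. The window at the outermost annotated start of the gene held no match. Windows were found for 7 of the 10 genes, and all 7 genes had the core in at least 1 window. By window the count was 7 of 10, against 14% of all 35116 promoter windows of this length. YAP1 had a match 162 to 157 bases before its start, and LATS2 one 10 to 15 bases after it. The AP-1 motif lay in 1 of the 10 windows, against 7.71% of all windows, and the CArG box, bound by SRF, in 0, against 1.29%. No 2 matches overlapped. All 7 genes with a window had a match, AMOTL2 and YAP1 among them, so a match could not separate called from uncalled genes.

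**Figure D1:**
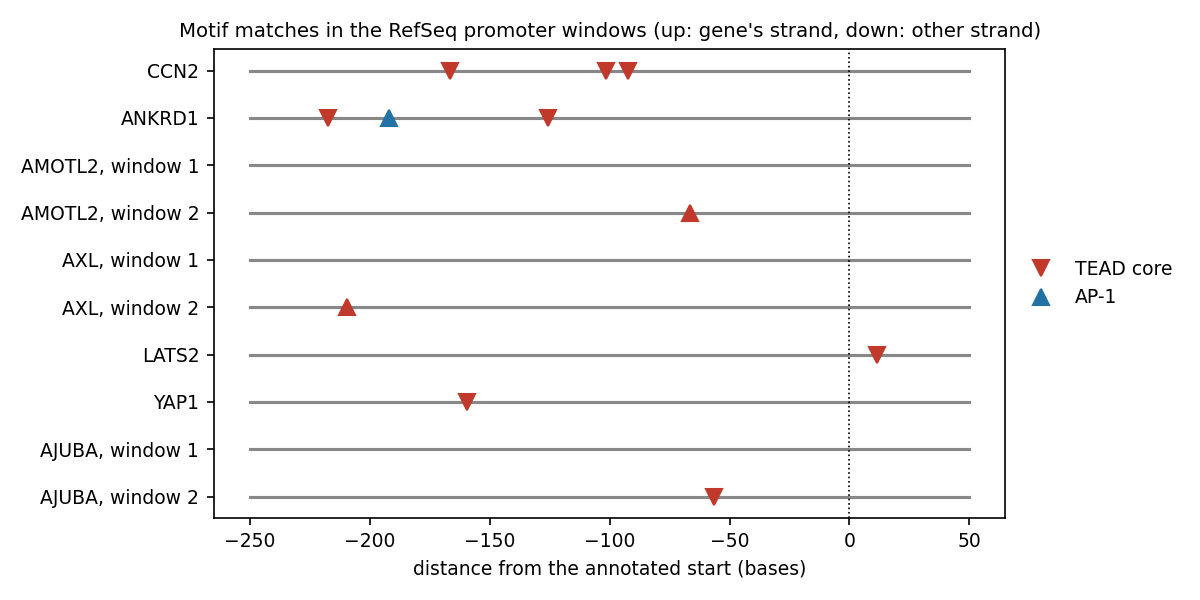
Matches to the TEAD core and the AP-1 motif in the 10 RefSeq promoter windows of 7 genes, by distance in bases from the annotated start (dotted line). Upward triangles lie on the gene's own strand and downward triangles on the other. CCN2 has 3 TEAD core matches and ANKRD1 has 2, with 1 AP-1 match.

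Deposited values are log2 levels after the authors' RMA processing, so a difference of 1 is a 2-fold change. Called genes are those with an adjusted p under 0.05 in a limma fit across all 14884 genes. Cultures were profiled in bulk, so fewer cells of a type and less RNA per cell cannot be told apart. The gamma_OFF replicates were the least alike: their r across genes was 0.986, against 0.994 for the gamma_ON and 0.994 for the CTRL replicates, and gamma_OFF replicate 2 stood apart on the first principal component. The gamma_OFF arrays also had the narrowest signal range. Their standard deviation over genes was 1.70 and 1.64, against 1.76 to 1.81 on the other arrays. All 8 YAP or TEAD genes lay above the median level of all genes. Differences with the range rescaled are given at the end.

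Among the targets, CCN2 fell in both histone groups. CCN2 encodes connective tissue growth factor, a secreted matrix-associated protein and a standard YAP target. Its level was 9.94 and 9.73 on the gamma_ON arrays, 10.05 and 9.98 on the gamma_OFF arrays, and 10.90 and 11.01 on the CTRL arrays. All 4 histone arrays lay below both CTRL arrays. The log2 difference was -1.12 in gamma_ON against CTRL (SE 0.13, adjusted p = 0.00371), a level 2.17-fold lower. It was -0.94 in gamma_OFF against CTRL (SE 0.13, adjusted p = 0.00663), 1.92-fold lower. The dimmer CCN2 row had 6.33 and 5.66 in gamma_ON, 5.68 and 6.42 in gamma_OFF, and 6.98 and 6.89 in CTRL. It too was lower on every histone array than on both CTRL arrays, by a mean of -0.94 in gamma_ON and -0.88 in gamma_OFF. Between gamma_ON and gamma_OFF the difference was -0.18 (95% interval -0.46 to 0.10). It ranged from -0.40 to -0.07 over 15 alternative settings. The gamma_ON call was lost without gamma_ON replicate 2 (adjusted p = 0.0568) and without CTRL replicate 2 (adjusted p = 0.0587), and the gamma_OFF call without CTRL replicate 2 (adjusted p = 0.0557). Without gamma_OFF replicate 2 the gamma_OFF call held.

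ANKRD1 had the lowest log2 difference in gamma_OFF among the 8 genes. It encodes a cardiac ankyrin repeat protein that responds to stretch and is, like CCN2, a common readout of YAP. The arrays gave 7.87 and 7.78 in gamma_ON, 7.19 and 7.10 in gamma_OFF, and 8.71 and 8.34 in CTRL. The 3 groups did not overlap, with gamma_OFF lowest and CTRL highest. ANKRD1 fell in gamma_OFF by 1.38 on the log2 scale (SE 0.14, adjusted p = 0.00355), a 2.60-fold lower level, and this call held whichever array was left out. In gamma_ON the difference from CTRL was -0.70 (SE 0.14), with an adjusted p of 0.0538. ANKRD1 was higher in gamma_ON than in gamma_OFF by 0.68 (SE 0.14, adjusted p = 0.0391). That call was lost without gamma_ON replicate 1 (adjusted p = 0.279), gamma_ON replicate 2 (0.106) or gamma_OFF replicate 2 (0.124).

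AXL, a receptor tyrosine kinase gene that YAP activates in several cancers, fell in gamma_OFF. Its level was 9.21 and 9.18 in gamma_ON, 9.06 and 9.20 in gamma_OFF, and 9.74 and 9.62 in CTRL. Both histone groups lay wholly below CTRL and overlapped each other. In gamma_OFF the log2 difference was -0.55 (SE 0.12, adjusted p = 0.0287), and in gamma_ON it was -0.49 (SE 0.12, adjusted p = 0.0865). Gamma_ON minus gamma_OFF was 0.06 (95% interval -0.20 to 0.33). Leaving out CTRL replicate 1 raised the adjusted p of the gamma_OFF difference to 0.167, and leaving out CTRL replicate 2 raised it to 0.128. Leaving out either gamma_ON array, which takes no part in the difference itself, gave 0.0596.

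AMOTL2, which encodes an angiomotin family protein of cell junctions that binds YAP and is itself a target, was not called in any comparison. The arrays gave 8.40 and 8.34 in gamma_ON, 8.16 and 8.38 in gamma_OFF, and 8.46 and 8.36 in CTRL, and all 3 groups overlapped. The 95% interval ran from -0.33 to 0.24 for gamma_ON minus CTRL and from -0.42 to 0.14 for gamma_OFF minus CTRL. A decrease as large as that of CCN2 lies outside both intervals.

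**Figure D2:**
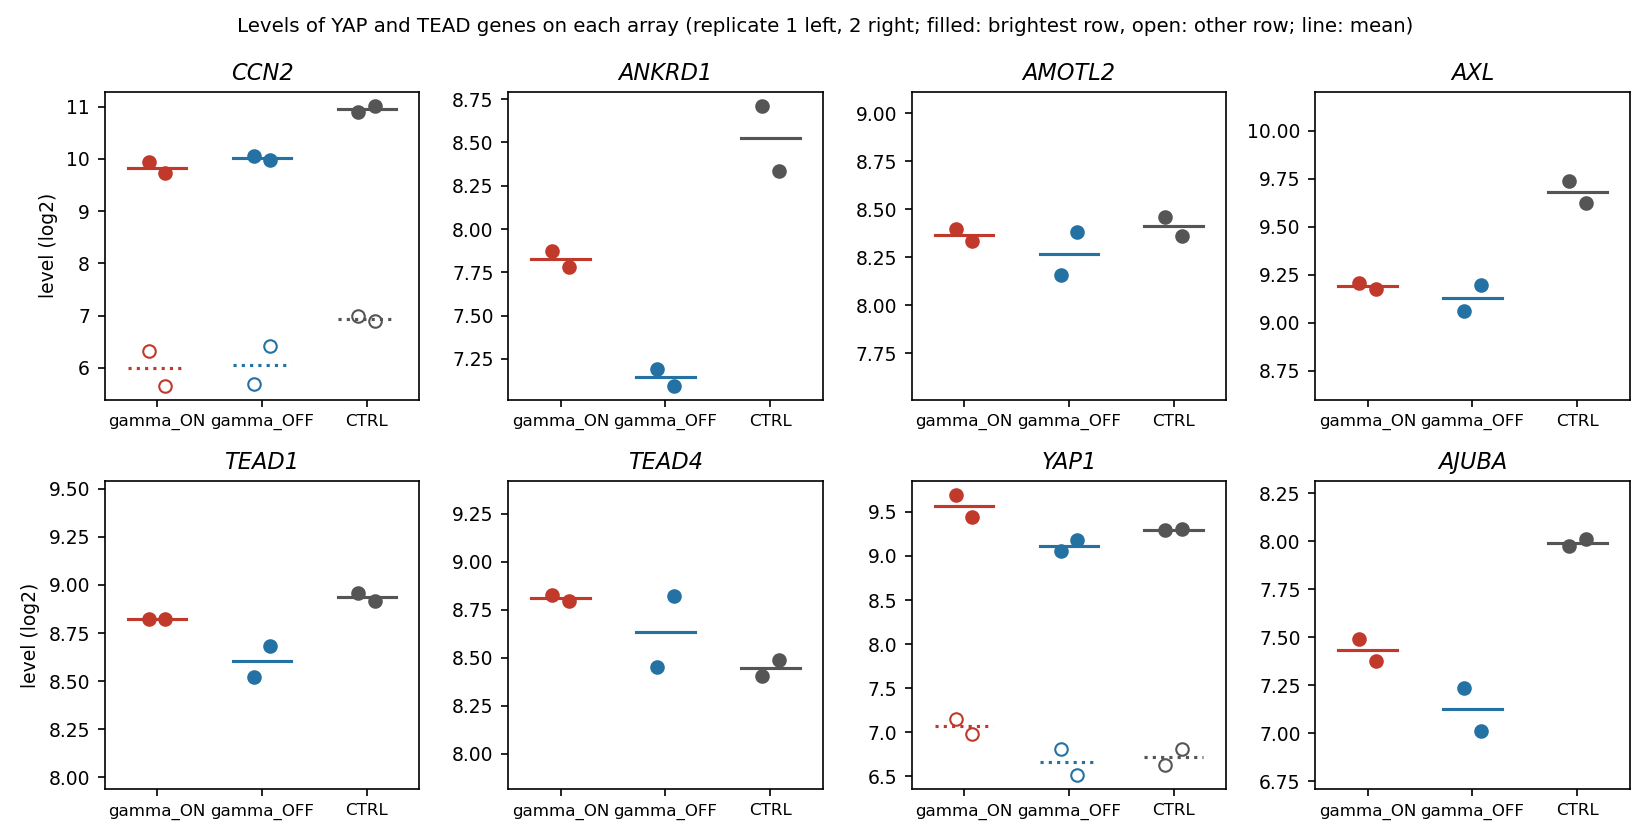
Log2 level of each measured YAP or TEAD gene on each of the 6 arrays, by group. Filled points are the brightest row of a gene, open points its other row, and lines the mean of 2 arrays. CCN2, ANKRD1, AXL, AJUBA and TEAD1 lie below both CTRL arrays on all 4 histone arrays. Of all genes, 52.4% had groups that did not overlap in gamma_ON against CTRL, and 61.3% in gamma_OFF against CTRL.

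Among the regulators, AJUBA fell in gamma_OFF. It encodes a LIM-domain protein of adherens junctions that binds LATS kinases and limits their action on YAP. Its level was 7.49 and 7.37 in gamma_ON, 7.24 and 7.01 in gamma_OFF, and 7.97 and 8.01 in CTRL. The groups did not overlap, again with gamma_OFF lowest. The log2 difference from CTRL was -0.87 in gamma_OFF (SE 0.12, adjusted p = 0.00827) and -0.56 in gamma_ON (SE 0.12, adjusted p = 0.0695). Without CTRL replicate 1 the gamma_OFF call was lost (adjusted p = 0.0531), as it was without CTRL replicate 2 (0.0635). Gamma_ON minus gamma_OFF was 0.31 (adjusted p = 0.126), and 0.42 (adjusted p = 0.042) without gamma_OFF replicate 1.

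At the settings used here the transcription machinery was not called in any of the 3 comparisons. YAP1 stood at 9.69 and 9.44 in gamma_ON, 9.06 and 9.18 in gamma_OFF, and 9.29 and 9.31 in CTRL. The gamma_ON arrays were the highest and the gamma_OFF arrays the lowest, without overlap. The log2 difference was 0.26 for gamma_ON minus CTRL (95% interval -0.03 to 0.55) and -0.18 for gamma_OFF minus CTRL (95% interval -0.47 to 0.11). For gamma_ON minus gamma_OFF it was 0.45 (SE 0.13, adjusted p = 0.0668). Of the 15 alternative settings 3 called this difference: limma-trend (adjusted p = 0.0417), dim genes left out (0.0350) and a threshold of 0.10. The dimmer YAP1 row had 7.15 and 6.98 in gamma_ON, 6.81 and 6.51 in gamma_OFF, and 6.63 and 6.81 in CTRL. There gamma_ON was again highest, by 0.40 over gamma_OFF, while gamma_OFF and CTRL overlapped.

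TEAD1 and TEAD4 are DNA-binding partners of YAP, and TEAD4 is also known for its part in trophectoderm formation in mouse embryos. TEAD1 had 8.82 and 8.82 in gamma_ON, 8.52 and 8.68 in gamma_OFF, and 8.96 and 8.92 in CTRL. CTRL was highest and gamma_OFF lowest, without overlap, with a difference of -0.34 for gamma_OFF minus CTRL (SE 0.12, adjusted p = 0.0959) and of -0.12 for gamma_ON minus CTRL (95% interval -0.38 to 0.15). TEAD4 had 8.83 and 8.80 in gamma_ON, 8.45 and 8.82 in gamma_OFF, and 8.41 and 8.49 in CTRL. Its gamma_ON arrays lay above both CTRL arrays, whereas the gamma_OFF replicates were 0.37 apart, the widest gap of any of the 8 genes in that group. The difference was 0.37 for gamma_ON minus CTRL (SE 0.14, adjusted p = 0.268) and 0.19 for gamma_OFF minus CTRL (SE 0.14, adjusted p = 0.388). The gamma_OFF difference was 0.0046 without gamma_OFF replicate 2 and 0.37 without gamma_OFF replicate 1.

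**Figure D3:**
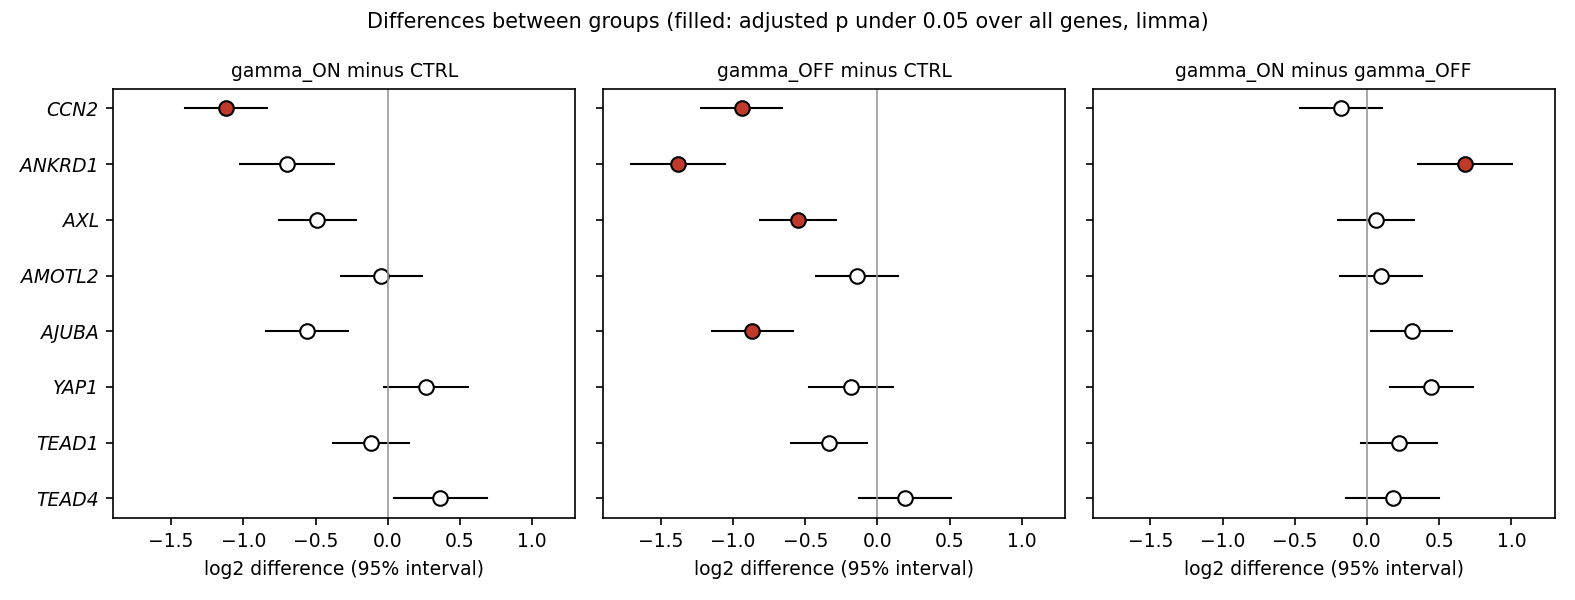
Log2 differences with 95% intervals for the 8 measured genes in the 3 comparisons, with filled points at an adjusted p under 0.05 over all genes (limma). CCN2 is filled in both comparisons with CTRL, and ANKRD1, AXL and AJUBA in gamma_OFF minus CTRL. The YAP1, TEAD1, TEAD4 and AMOTL2 points are open throughout.

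Of the 8 genes, 1 was called lower in gamma_ON against CTRL and 0 higher, where 0.806% of all genes were called lower and 0.739% higher. In gamma_OFF against CTRL 4 were called lower and 0 higher, where 6.08% of all genes were called lower and 2.77% higher. For gamma_ON against gamma_OFF 1 was called higher and 0 lower, where 3.98% of all genes were called higher and 2.02% lower. The median log2 difference of the 8 genes was -0.30 in gamma_ON and -0.44 in gamma_OFF against CTRL, and the median of all genes was 0.02 and 0.01. Both comparisons use the same CTRL arrays, so an array that is high in CTRL lowers both differences. In gamma_ON against CTRL 7 of the 8 genes had groups that did not overlap, as did 52.4% of all genes, and in gamma_OFF against CTRL 6 did, as did 61.3%. For gamma_ON against gamma_OFF 5 did, as did 63.3%. Leaving out an array moved the counts of all genes too. Leaving out either gamma_OFF array came to the fit of only the gamma_ON and CTRL arrays, as 1 array alone adds no spread. In that fit 4 of the 8 genes were called lower in gamma_ON, adding ANKRD1, AXL and AJUBA. There 216 genes in all were called lower, against 120 with every array. Without gamma_ON replicate 2 it was 0 of the 8 and 8 genes in all, and without CTRL replicate 2 it was 0 and 11. In gamma_OFF 905 genes in all were called lower with every array. Without gamma_OFF replicate 2 it was 4 of the 8 genes and 301 in all, without CTRL replicate 1 it was 2 and 152, and without CTRL replicate 2 it was 1 and 116.

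Other widely used YAP and TEAD targets were taken from a list of 18, of which 9 had a named row. In gamma_OFF against CTRL 4 fell, 0 rose and 5 did not pass, with a list median of -0.18. Of all genes, 6.08% were called lower and 2.77% higher there. EDN1, which encodes the peptide endothelin-1, had 6.68 and 6.56 in gamma_OFF and 7.37 and 7.64 in CTRL, a difference of -0.88 (adjusted p = 0.00857, and 0.0805 without CTRL replicate 2). MYOF, the gene of the membrane protein myoferlin, stood at -0.88 (adjusted p = 0.0185, 0.105 without CTRL replicate 1 and 0.08 without gamma_OFF replicate 2). CRIM1, which encodes a transmembrane protein that binds BMPs, stood at -0.85 (adjusted p = 0.0109), with 0.0743 and 0.0785 without CTRL replicates 1 and 2. FJX1, the human homologue of Drosophila four-jointed, stood at -0.54 (adjusted p = 0.0371, and up to 0.208, without CTRL replicate 2). FJX1 kept its call only when gamma_OFF replicate 1 was the array left out, and without gamma_OFF replicate 2 its adjusted p was 0.101.

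In gamma_ON against CTRL 0.806% of all genes were called lower and 0.739% higher. There 1 of these 9 targets fell, 0 rose and 8 did not pass, with a median of -0.05. The difference was negative for 6 and positive for 3. The highest was that of IGFBP3, at 0.60 (adjusted p = 0.0690), with 7.70 and 7.66 in gamma_ON and 7.08 and 7.09 in CTRL. EDN1 had 6.70 and 6.77 in gamma_ON and 7.37 and 7.64 in CTRL, a difference of -0.77 (adjusted p = 0.0259). Whichever of the 4 compared arrays was left out, the call was lost, and the adjusted p lay between 0.0588 and 0.266. Against gamma_OFF, 3.98% of all genes were called higher in gamma_ON. MYOF and FJX1 were among them, by 0.87 (adjusted p = 0.0280) and 0.65 (adjusted p = 0.0315). Each lost its call without gamma_ON replicate 1, gamma_ON replicate 2 or gamma_OFF replicate 2, with adjusted p-values up to 0.220 for MYOF and 0.266 for FJX1. FJX1 also lost it without either CTRL array (0.0617).

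Of 11 listed genes of the Hippo kinase cassette 10 were measured. In gamma_OFF 1 of them fell, where 6.08% of all genes were called lower. In gamma_ON 0 were called, where 0.806% of all genes were called lower and 0.739% higher. Both counts are near these shares, and nothing is read from them. LATS1 had no named row, and nor had LATS2, so neither LATS kinase gene was measured. The median difference of the 10 was -0.02 in gamma_ON and -0.15 in gamma_OFF against CTRL. The difference was negative for 5 of the 10 in gamma_ON and for 7 in gamma_OFF. In gamma_ON SAV1, a scaffold of the STK3 and STK4 kinases, stood at 0.30 (adjusted p = 0.362). In gamma_OFF MOB1B, which encodes an activating partner of LATS kinases, fell by 0.64 (adjusted p = 0.0411) and 9 did not pass. Leaving out gamma_OFF replicate 2 gave MOB1B -0.42 (adjusted p = 0.115), and the call held only without gamma_OFF replicate 1 (0.00875). STK4, which encodes a Hippo kinase, stood at -0.45 in gamma_OFF (adjusted p = 0.0846), and MOB1A, the paralogue of MOB1B, at -0.48 (adjusted p = 0.103).

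Among 10 upstream regulators, FAT1, an atypical cadherin gene, fell in gamma_OFF by 0.61 (adjusted p = 0.0298) and 9 did not pass. This count is near the 6.08% of all genes called lower there, and nothing is read from it. FAT1 likewise kept its call only without gamma_OFF replicate 1 (0.0109), and without gamma_OFF replicate 2 it stood at -0.47 (adjusted p = 0.0922). In gamma_ON 0 of the 10 were called, where 0.806% of all genes were called lower and 0.739% higher. Of 7 nuclear partners 0 were called in any comparison. In gamma_OFF against CTRL the difference was positive for 5 of them and negative for 2, with a median of 0.11. VGLL2 had the lowest adjusted p there, at 0.30 (adjusted p = 0.132). WWTR1, which encodes the YAP paralogue TAZ, stood at -0.20 in gamma_OFF against CTRL (adjusted p = 0.294), and TEAD2 at 0.32 in gamma_ON against CTRL (adjusted p = 0.264).

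AP-1 and SRF are transcription factors that often act on the same targets as TEAD. JUN, an AP-1 subunit gene, had 7.57 and 7.38 in gamma_ON, 7.03 and 7.08 in gamma_OFF, and 8.32 and 8.41 in CTRL. It fell by 0.89 in gamma_ON (adjusted p = 0.00929) and by 1.31 in gamma_OFF (adjusted p = 0.00237). FOSL1, which encodes a partner of JUN, fell by 0.70 in gamma_ON (adjusted p = 0.0389) and by 1.05 in gamma_OFF (adjusted p = 0.00551). Both gamma_OFF calls held whichever array was left out. Both gamma_ON calls were lost whichever of the 4 compared arrays was left out, with adjusted p-values up to 0.121 for JUN and 0.335 for FOSL1. Of the 8 AP-1 and immediate early genes 2 fell in gamma_ON and 3 in gamma_OFF, the third being ATF3 (-0.51, adjusted p = 0.0465, and called only without gamma_OFF replicate 1 when an array was left out, with 0.136 without gamma_OFF replicate 2). Of all genes, 0.806% were called lower in gamma_ON and 6.08% in gamma_OFF against CTRL. The list medians were -0.18 in gamma_ON and -0.15 in gamma_OFF.

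Of 9 listed SRF and contractile actin genes 5 were measured, with medians of -0.62 in gamma_ON and -0.55 in gamma_OFF. TPM1, a tropomyosin gene, fell by 0.75 in gamma_ON (adjusted p = 0.0228) and by 0.86 in gamma_OFF (adjusted p = 0.00809). TAGLN, which encodes the actin-binding protein transgelin, fell by 0.62 (adjusted p = 0.0304) and by 0.55 (adjusted p = 0.0235) in the same order. Whichever of the 4 compared arrays was left out, the gamma_ON calls of both were lost, with adjusted p-values up to 0.210 for TPM1 and 0.243 for TAGLN. In gamma_OFF TPM1 had 0.0512 and 0.0645 without CTRL replicates 1 and 2, and TAGLN kept its call only without gamma_OFF replicate 1, with 0.0540 without gamma_OFF replicate 2. The other 3 genes did not pass in either comparison. Of all genes, 0.806% were called lower in gamma_ON and 6.08% in gamma_OFF against CTRL.

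**Figure D4:**
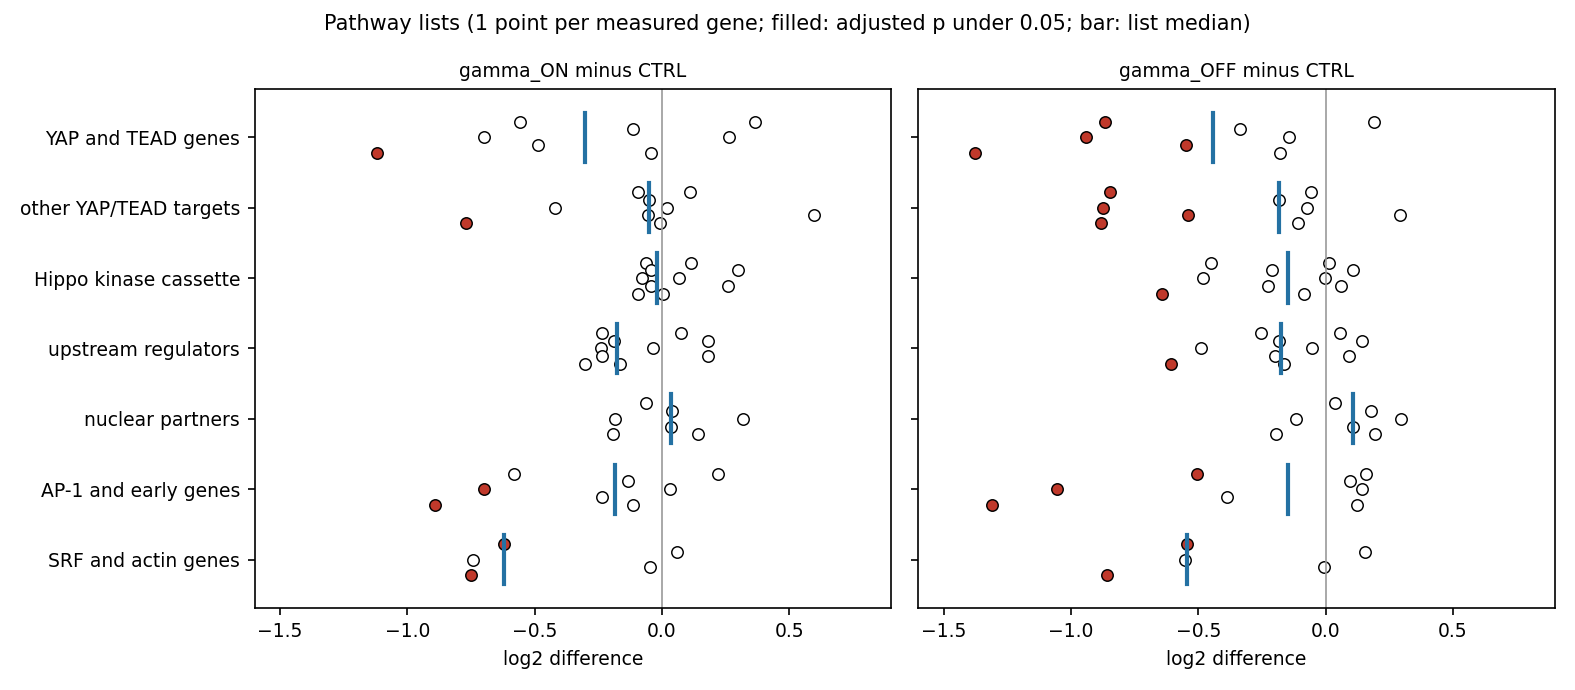
Log2 differences of the measured genes of 7 lists in gamma_ON and gamma_OFF against CTRL, with 1 point per gene, filled at an adjusted p under 0.05, and a bar at the list median. The filled points all lie below 0, and the kinase cassette and nuclear partners have medians between -0.15 and 0.11.

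By level, the pattern across arrays most like that of CCN2 belonged to HSPA1B, with a Pearson r of 0.988 over the 6 arrays, among 644 genes with a range of at least 1. HSPA1B, a heat shock gene, is near-identical to HSPA1A, so its own value is uncertain. It was followed by CAVIN1 (r = 0.986), which encodes a coat protein of caveolae, PTAR1 (0.984), SAT1 (0.983), a polyamine acetyltransferase gene, and IRS4 (0.980), an insulin receptor substrate gene. CAVIN1 had 7.68 and 7.59 in gamma_ON, 7.62 and 7.70 in gamma_OFF, and 8.45 and 8.59 in CTRL. For TEAD4 the nearest among 645 genes were URAD (r = 0.951), CEACAM6 (0.914), FAR2 (0.838), ASB5 (0.836) and MIXL1 (0.835). The arrays come in 3 pairs of replicates, so any gene with one shift between groups scores high. Among the 8 genes, ANKRD1 and AJUBA had an r of 0.956, and CCN2 and AXL 0.927, whereas CCN2 and YAP1 had -0.188.

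Markers were checked beside these results as mean log2 levels of each list. Their counts of calls stand beside these shares of all genes. In gamma_ON against CTRL 0.739% were called higher and 0.806% lower, and in gamma_OFF against CTRL 2.77% and 6.08%. For gamma_ON against gamma_OFF they were 3.98% and 2.02%. Of 12 pluripotent cell markers 11 were measured, and the list stood at 10.56 and 10.49 in gamma_ON, 10.58 and 10.63 in gamma_OFF, and 10.29 and 10.43 in CTRL. SOX2 lay between 11.39 and 11.73 and LIN28A between 11.90 and 12.23 on the 6 arrays. Lower were POU5F1, between 7.10 and 8.05, and NANOG, between 6.26 and 7.29. By mean level 10 of the 11 lay above the median of all genes, and NANOG, the lowest, did not. In gamma_ON against CTRL 1 of the 11 rose and 10 did not pass. That gene, POU5F1, stood at 0.71 (adjusted p = 0.0441, and 0.113 to 0.283 without any 1 of the 4 compared arrays), and it has near-identical pseudogenes, so its value is uncertain. In gamma_OFF 2 rose and 9 did not pass: PRDM14 by 0.54 (adjusted p = 0.0244) and DNMT3B by 0.46 (adjusted p = 0.0489), both called only without gamma_OFF replicate 1 when an array was left out. The 10 endoderm markers stood at 9.33 and 9.41 in gamma_ON, 7.76 and 7.81 in gamma_OFF, and 8.31 and 8.00 in CTRL. Their members differed. In gamma_ON against CTRL 5 rose and 5 did not pass: AFP rose by 4.37, APOB by 2.38, FGB by 2.17, TTR by 1.38 and APOA2 by 1.11, while SOX17 stood at 0.02, FOXA2 at 0.08 and GATA4 at 0.11. TTR lost its call without either gamma_ON array, and APOA2 without either gamma_ON array or CTRL replicate 2. In gamma_OFF AFP rose by 1.02 (adjusted p = 0.00743, and 0.0558 without CTRL replicate 2), 4 fell and 5 did not pass. Those that fell were APOA2 by 1.24, TTR by 0.96, FGB by 0.75 and GATA6 by 0.56, and of these only APOA2 kept its call whichever array was left out. The 5 measured cardiac mesoderm markers of 8 stood at 7.13 and 7.29 in gamma_ON, 6.86 and 6.999 in gamma_OFF, and 6.67 and 6.63 in CTRL. In gamma_ON against CTRL HAND1 rose by 1.59 (adjusted p = 0.00120) and ISL1 by 0.80 (adjusted p = 0.0228), and 3 did not pass. Among those, NKX2-5 stood at -0.07 and MESP1 at -0.09. In gamma_OFF against CTRL 0 of the 5 were called. Of 10 trophoblast and amnion markers 7 were measured, at 6.83 and 6.88 in gamma_ON, 6.55 and 6.72 in gamma_OFF, and 6.70 and 6.66 in CTRL. In gamma_OFF against CTRL GATA3 fell by 0.83 (adjusted p = 0.0114) and 6 did not pass, and in gamma_ON 0 of the 7 were called. Of 12 fibroblast markers only LUM, DCN, THY1 and S100A4 were measured, at 7.48 and 7.41 in gamma_ON, 7.08 and 6.89 in gamma_OFF, and 7.29 and 7.08 in CTRL. None of them was called against CTRL. LUM was higher in gamma_ON than in gamma_OFF by 1.10 (adjusted p = 0.0260), and HAND1, ISL1, GATA3 and VTCN1 were also called higher in that comparison. The calls of the cardiac, trophoblast and fibroblast lists were not checked with an array left out. The feeders are mouse cells on a human array, and the deposited values carry no call of presence, so no marker could be scored as absent. The part of other cell types in the changes of CCN2, ANKRD1, AXL and AJUBA was not tested.

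**Figure D5:**
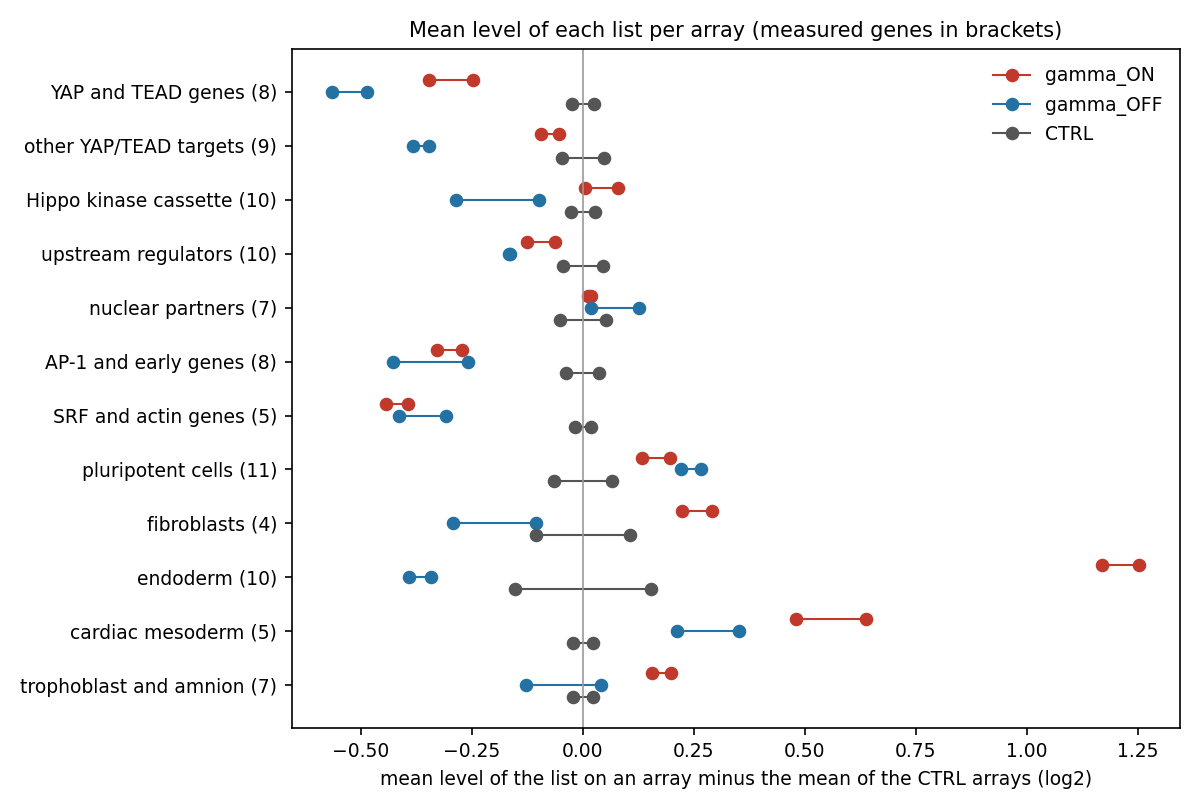
Mean log2 level of each gene list on each array, relative to the mean of the CTRL arrays, with the number of measured genes in brackets and the 2 replicates of a group joined by a line. The YAP and TEAD genes lie at -0.25 and -0.35 in gamma_ON and at -0.57 and -0.49 in gamma_OFF, and the endoderm markers at 1.17 and 1.25 in gamma_ON and at -0.39 and -0.34 in gamma_OFF.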

How the data were processed

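Total RNA of H9 clones was measured on Affymetrix human gene arrays, with 1 array for each of 6 samples in 3 groups. Per the submitters' processing notes the authors used RMA (background correction, normalization and probe summary) and Partek 6.6. The deposited values are log2 levels, as their range and their medians of 6.11 to 6.25 per array show. No options, build or annotation of that step could be read from the labels.

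Of 53617 rows, 16098 had 1 gene symbol in the platform's probe table, 0 had several and 37519 were unnamed here. All 16098 matched RefSeq (GRCh38.p14) by gene identifier. The row with the highest mean was kept for each of 14884 genes. The number of arrays limits the precision.

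Differences came from limma 3.58.1 (lmFit, eBayes) in R 4.3.3, fitted to all 6 arrays with 3 residual and 6.05 prior degrees of freedom, with Benjamini-Hochberg adjustment over all genes. With 2 arrays a group, a two-sided exact permutation test cannot reach a p under 0.333 and was not used. The script was tested on simulated data.

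The genes and lists were chosen with earlier results of these data known. Named are all 10 listed genes, the called genes of 6 pathway lists with some of their uncalled genes of lowest adjusted p, and the 5 genes most like CCN2 and TEAD4. The alternatives for called pathway genes and for called pluripotent cell and endoderm markers were added after seeing the data.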

Additional observations from a re-analysis of the deposited data

How the results depend on the processing

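With 2 arrays a group, counts of called genes depended on the settings. For gamma_ON against CTRL, 230 genes and 1 YAP or TEAD gene were called; these were 386 and 4 with limma-trend, 803 and 4 with array weights, 487 and 4 in a fit of only the 2 groups, and 508 and 4 at a threshold of 0.10. With dim genes left out they were 311 and 4. The fit of only the 2 groups is the same as the fit without either gamma_OFF array. For gamma_OFF against CTRL the 1317 calls became 767 with array weights, 567 in a fit of only the 2 groups and 2941 at 0.10. For gamma_ON against gamma_OFF, 892 genes and 1 YAP or TEAD gene were called; these were 1628 and 2 with limma-trend, 229 and 0 with array weights, 1495 and 2 with dim genes left out, 435 and 0 with the signal range rescaled, and 3121 and 2 at 0.10, the second gene being YAP1 wherever 2 were called in these settings, and 275 genes were called in a fit of only the 2 groups. Leaving out 1 array, where the remaining array of a group is assumed to vary like the other groups, gave 34 to 487, 131 to 3515 and 49 to 4061 genes, and 0 to 4, 1 to 4 and 0 to 2 YAP or TEAD genes, in the same order of comparisons. The cause of these shifts was not tested.

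Same-numbered replicates share only a number: their deviations correlated at -0.096, -0.073 and 0.088 between groups. With the replicate number as a block, 210, 1245 and 871 genes were called, and 2 YAP or TEAD genes in gamma_ON, ANKRD1 having an adjusted p of 0.0426. With the signal range rescaled to be alike on all arrays, gamma_OFF minus CTRL was -0.75 for CCN2, -1.35 for ANKRD1, -0.84 for AJUBA and -0.42 for AXL. Without rescaling these were -0.94, -1.38, -0.87 and -0.55. AXL then had an adjusted p of 0.0748, and the other 3 kept their calls. After rescaling YAP1 stood at -0.05, AMOTL2 at -0.06, TEAD1 at -0.23 and TEAD4 at 0.29.

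Over the 8 genes, 4 differences turned sign in at least 1 setting, with 6 such values in all, and 0 of them passed the threshold in either setting. AMOTL2 in gamma_ON against CTRL ranged from -0.095 to 0.0065 with 1 array left out. For gamma_ON against gamma_OFF, rescaling gave AMOTL2 -0.016 and AXL -0.11, and leaving out 1 array gave ranges of -0.013 to 0.21 for AMOTL2, -0.0047 to 0.13 for AXL and -0.0076 to 0.36 for TEAD4. The lowest value came without gamma_OFF replicate 1 in each of these 3 ranges.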
